A study of Mus musculus with 2 samples.

Results

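Narrow, isolated patches of H3K79me2 were examined in mouse embryonic fibroblasts, connective tissue cells grown from embryos. A patch was a region 2 to 3 kb wide with no other region within 20 kb on either side, called from the reads of 1 library (replicate 2) in 1 kb bins of the 19 autosomes. A bin passed at 12 or more distinct read positions, passing bins up to 2 uncalled bins apart formed 1 region, and regions of 1 bin were dropped. By this rule 2155 of 27892 kept regions (7.73%) were isolated and narrow, and they covered 5240 of 292390 kb of called sequence. The regions were thus chosen by the read counts of replicate 2, and only its other readouts and the second library (replicate 1) can test them.

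H3K79me2 is dimethylation of lysine 79 on the globular face of histone H3. The methyltransferase DOT1L places it, travelling with elongation factors that bind RNA polymerase II, and it typically forms broad domains that begin near the start of a transcribed gene and run into its body. An isolated patch of a few kilobases is therefore not the usual shape of this mark. The files are on mouse build mm8, and no gene positions or sequence of that build were used here, so the patches are given by position with no gene, exon, promoter or bases assigned.

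Both libraries are chromatin immunoprecipitations with the Abcam AB3594 antibody from fibroblasts kept in DMEM with 10% FBS, and the labels name no treatment, strain, age, genotype or clone. They form 1 group of 2 libraries. The gel slice was 150 to 350 bp wide in replicate 1 and 150 to 300 bp in replicate 2, and flow cell and date also differ. Nothing says that the cultures were separate, so the spread may be technical, and no input library was analysed here. On the autosomes replicate 1 held 16472599 distinct reads with 1 placement and replicate 2 held 12862946. The kept regions took 49.9% of the reads of replicate 2, which chose them, and 23.1% of those of replicate 1. The rule itself raises the share of replicate 2, so these shares do not measure a difference in enrichment. Background, the median density of 10 kb bins with reads, was 6.7 reads per kb in replicate 1 and 3.3 in replicate 2.

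Most patches were weak. In replicate 2 they held 24 to 377 reads with a median of 33, or 14 reads per kb at the median against 5.03 in their flanks. Replicate 1 held 3 to 1353 reads in the same patches with a median of 21, against a flank density of 7.37 reads per kb. Flanks were the 1 kb bins 3 to 20 kb from the patch that lay in no kept region and held a read in either library. A width of 2 kb was found for 1225 patches and a width of 3 kb for 930. In 653 of the latter the middle bin had stayed below 12 reads, so those patches were a pair of separate called bins.

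Most patches carried no clear signal in replicate 1. Each kept region was tested there against its own flanks with a one-sided exact binomial test given the lengths, with Benjamini-Hochberg adjustment over all 26752 regions with at least 10 flank bins. At an adjusted p below 0.05, 370 of 2154 patches (17.2%) were called, against a background of 36.0% over all kept regions. That background includes the broad domains, and the difference between the shares was not tested, because regions are not replicates. At an adjusted p below 0.001, 147 patches (6.82%) were left, against 23.9% of all kept regions. With the genome-wide background in place of flanks (Poisson test, adjusted p below 0.05), 631 patches (29.3%) were called, against 55.8% of all kept regions.

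A second background came from sequence where replicate 2 had no region. All 2 kb windows with no kept region within 20 kb and all such 3 kb windows went through the same test at the same raw p of 0.018. Of the 673232 windows of 2 kb tested, 5.11% were called, and of the 431375 windows of 3 kb, 5.97%. An unadjusted p below 0.05 was reached by 9.68% and 10.9% of these windows and by 25.3% of the patches. The windows exceed the nominal share, so counts in replicate 1 vary more than the test allows and a single call is weaker evidence than its p. What this extra variation comes from was not tested, and the windows were kept free of regions of replicate 2 only. The windows also lie in poorer surroundings, with a median flank density of 6.34 reads per kb in replicate 1 and 2.42 in replicate 2.

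At the median patch the excess in replicate 1 was small. The ratio to flanks, as reads plus 1 over flank expectation plus 1, had a median log2 of 0.20 (1.15-fold) and a 10th to 90th percentile range of -0.40 to 0.86. Over all kept regions the median was 0.31, and over the 2 kb windows it was 0.00. The ratio was above 1 in 68.1% of patches, in 76.7% of all kept regions and in 49.8% of the windows. It reached 2 in 6.87% of patches, 13.8% of kept regions and 1.34% of windows. In replicate 2 the median log2 ratio of the patches was 1.40, a value the rule itself selected.

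**Figure D1:**
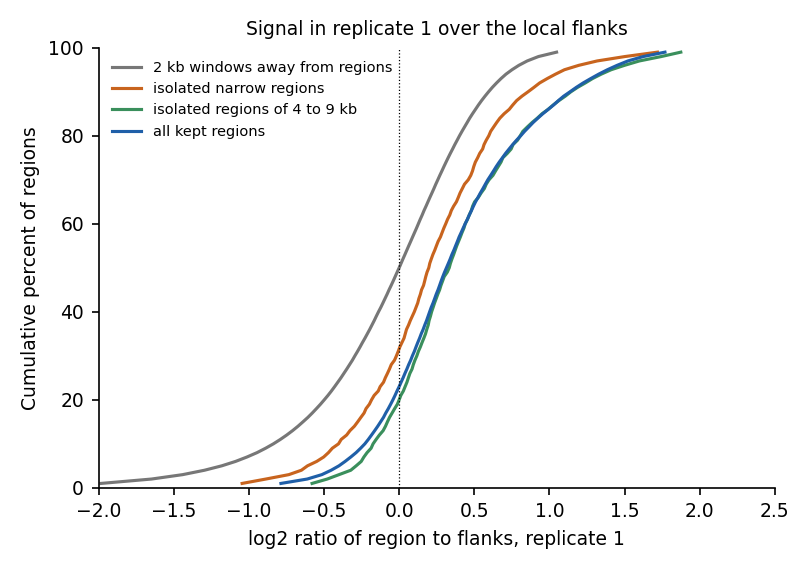
Cumulative percent of regions (vertical axis) against the log2 ratio of a region's reads to its flanks in replicate 1 (horizontal axis, percentiles 1 to 99), for isolated narrow regions, isolated regions of 4 to 9 kb, all kept regions and 2 kb windows away from regions. The curve of the narrow regions, with a median of 0.20, lies between that of the windows at 0.00 and that of all kept regions at 0.31.

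How strongly a patch stood out in replicate 2 went with how often replicate 1 showed it. Limits of 60 and 100 reads were chosen after the values were seen. Of the patches with 24 to 29 reads in replicate 2, 62 of 729 (8.50%) were called in replicate 1. With 30 to 39 reads it was 96 of 849 (11.3%), and with 40 to 59 reads 98 of 414 (23.7%). The share then rose past that of all kept regions, to 79 of 125 (63.2%) at 60 to 99 reads and 35 of 37 (94.6%) at 100 or more. Median log2 ratios in replicate 1 over these 5 classes were 0.13, 0.16, 0.28, 0.81 and 1.46. Across the 2154 patches the log2 ratios of the libraries had a Pearson r of 0.44 and a Spearman rho of 0.29, given as a description because patches share libraries, copy number and placeable sequence. Without the patches rich in reads with 2 placements (defined below) the values were 0.39 and 0.28, and over all kept regions 0.68 and 0.61.

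**Figure D2:**
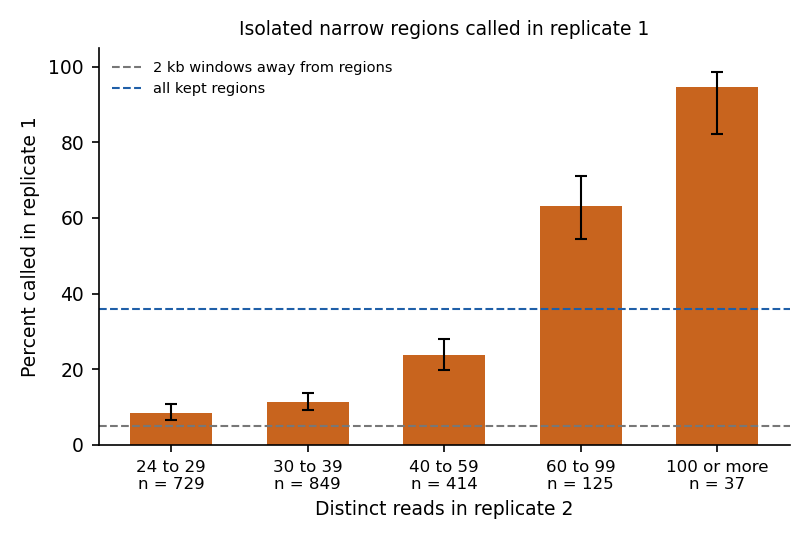
Percent of isolated narrow regions called in replicate 1 (vertical axis) by distinct reads in replicate 2 (horizontal axis); error bars are 95% Wilson intervals over regions, which are not independent replicates, and dashed lines mark the background of 2 kb windows (5.11%) and of all kept regions (36.0%). The share goes from 8.50% in the class of 24 to 29 reads to 94.6% in the class of 100 or more.

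The inner make-up of a patch also separated the calls. Patches of 3 kb with all 3 bins called numbered 277, and 111 of the 276 tested (40.2%) were called in replicate 1 at a median log2 ratio of 0.45. Patches of 3 kb with an uncalled middle bin gave 84 of 653 (12.9%) at 0.16, and patches of 2 kb gave 175 of 1225 (14.3%) at 0.18. Filled patches also held more reads in replicate 2, with a median of 51 against 35 and 29.

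Patches just inside the thresholds and regions just outside them had similar values in replicate 1. The 380 patches whose called bins all held 12 or 13 reads had a median log2 ratio of 0.13 in replicate 1, with 8.68% called. Isolated regions of the same width found only with a threshold of 10 reads, with no bin at 12, numbered 583 and had 0.11 and 8.92%. On the side of width, the 794 isolated regions of 4 kb had 0.21 and 21.5%. On the side of isolation, the 586 narrow regions with a neighbour 16 to 20 kb away had 0.17 and 12.3%, and the 389 with the nearest 21 to 25 kb away had 0.18 and 12.9%.

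Beside the regions most like them, the patches fell between their crowded and their wider counterparts. Of 6469 tested narrow regions that were not isolated, 12.1% were called in replicate 1 at a median log2 ratio of 0.17. Among 1945 isolated regions of 4 to 9 kb, 37.3% were called at 0.33, and among 710 isolated ones of 10 to 49 kb, 89.0% at 0.996. Wider regions hold more reads and so give the test more power, and these shares carry no test of difference.

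Around the patches the signal of replicate 1 was wider than the patch. Among 154 patches with 60 or more reads in replicate 2 and no wealth of reads with 2 placements (defined below), replicate 1 averaged 14.4 reads per kb in the patch. It still averaged 10.4 and 10.2 in the first bins to the left and right and 9.16 and 8.81 in the second, against 6.61 and 6.75 at 20 kb. In replicate 2 the same patches went from 32.8 to 6.18 and 6.27 in 1 bin, a drop that the rule forces in part, because a neighbouring bin at 12 reads would have been joined. Those first bins still lay above the 3.64 and 3.84 reads per kb of replicate 2 at 20 kb, so raised neighbours were not particular to replicate 1. For the 1980 weaker patches replicate 1 averaged 8.70 reads per kb in the patch, 8.21 and 8.20 in the first bins beside it and 7.06 and 7.16 at 20 kb.

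**Figure D3:**
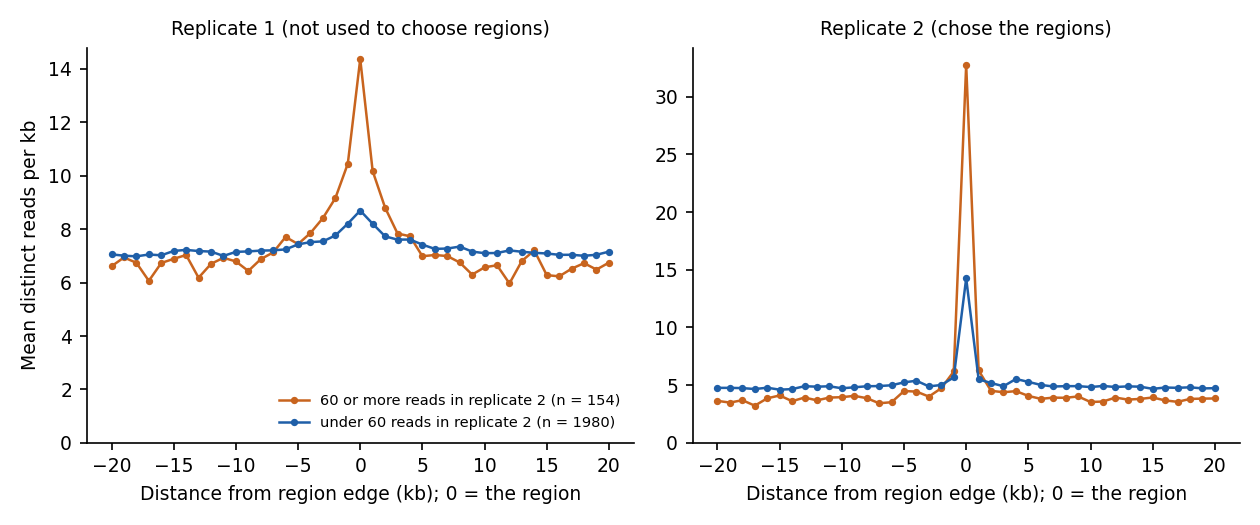
Mean distinct reads per kb (vertical axes, different scales, starting at 0) by distance from the region's edge in kb (horizontal axes; 0 is the region) in replicate 1 and replicate 2, for 154 isolated narrow regions with 60 or more reads in replicate 2 and 1980 with fewer, without those rich in reads with 2 placements. In replicate 1 the stronger regions peak at 14.4 reads per kb with shoulders of 10.4 and 10.2 in the adjoining bins; in replicate 2 they peak at 32.8.

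Outside the 21 patches rich in reads with 2 placements, the sharp summits of replicate 2 had little counterpart in replicate 1. Reads were centred on the densest 200 bp of each patch in replicate 2. For the 154 stronger patches, replicate 1 held 14.8 reads per kb within 300 bp of that point and 12.1 at 1000 to 1500 bp, a ratio of 1.23, while replicate 2 gave 4.92. The outer zone lies in the patch or close to it. Replicate 1 was still raised there, against 6.61 and 6.75 reads per kb at 20 kb, so the ratio leaves out its wider rise. For the 1980 weaker patches the ratio in replicate 1 was 1.04, and it was 1.05 in the 670564 windows of 2 kb centred the same way. The summit of replicate 2 is chosen as a maximum, so its own ratio is inflated: even the windows gave 2.22. The 21 repeat-rich patches, in contrast, gave 3.39 in replicate 1 and 5.22 in replicate 2.

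**Figure D4:**
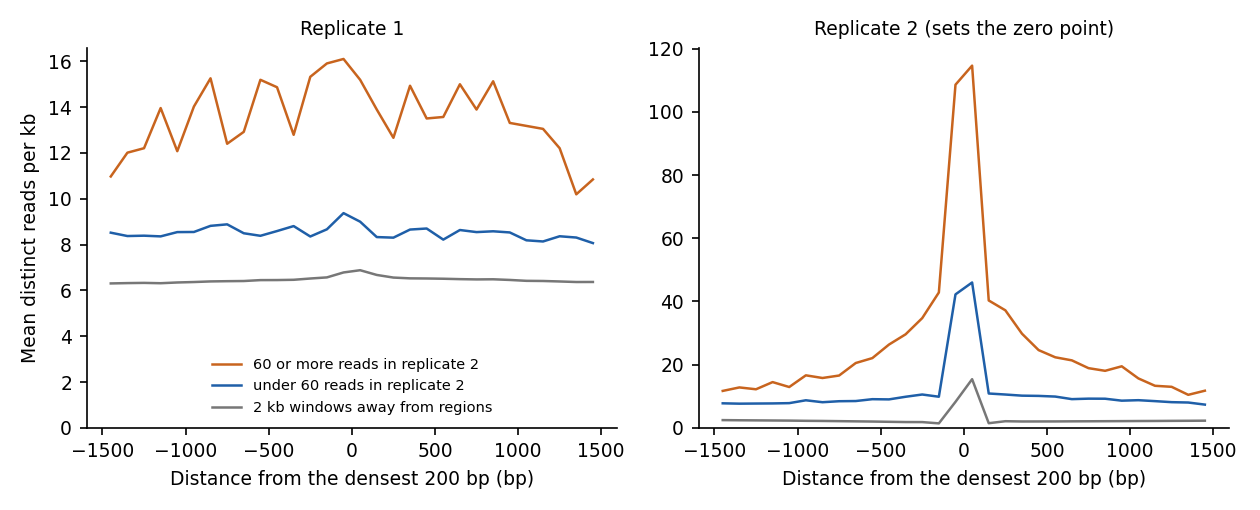
Mean distinct reads per kb (vertical axes, different scales, starting at 0) by distance in bp from the densest 200 bp of replicate 2 (horizontal axes), in replicate 1 and replicate 2, for stronger and weaker isolated narrow regions and for 2 kb windows away from regions. Replicate 2 shows the peak that set the zero point. Replicate 1 slopes gently in the stronger regions, with a ratio of near to far of 1.23. It is nearly flat in the weaker regions and the windows, at 1.04 and 1.05.

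The distance between strands was longer in replicate 1, except in the pooled reads of the 21 repeat-rich patches. Among the stronger patches, the most frequent distance from a plus-strand to a minus-strand 5′ end lay near 85 bp in replicate 1 and near 45 bp in replicate 2, at 1.53 and 3.001 times the level at 300 to 600 bp. The weaker patches gave 85 and 55 bp, at 1.80 and 3.37 times, and the repeat-rich ones 45 bp in both libraries, at 2.28 and 4.31 times. Both strands were evenly used: the plus strand took 49.8% of the patches' reads in replicate 1 (95% Wilson interval 49.3 to 50.2) and 49.95% in replicate 2 (49.6 to 50.3). A strand share of 90% or more was found in 1 patch of replicate 1 and in 0 of replicate 2.

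The patches called in replicate 1 with the largest ratios lay mostly where reads with 2 placements were dense. Reads that Bowtie placed at 2 positions, which the rule left out, mark sequence with a near-identical copy elsewhere. Their distinct positions reached at least 10 times the genome-wide density in both libraries at 21 patches (0.974%), against 0.298% of all kept regions and 0.401% of 2 kb windows. Of the 8 patches at least 5-fold over their flanks in replicate 1, 8 were among these 21. Of the 20 tested, 14 (70.0%) were called, at a median log2 ratio of 1.70. Windows of 2 kb as rich in such reads were called in 91 of 2668 cases (3.41%), at a median of -0.50. Unlike those windows, the patches had first been chosen for their reads in replicate 2. Pooled over the 21 patches, 67.2% of the reads in replicate 1 were repeats of a position, against 15.2% on the autosomes. Most of this came from 2 patches, on chromosomes 5 and 14. The other 19 gave 26.9%, and the median patch of the 21 gave 18.9%, with a range of 0 to 76.5%. In replicate 2 the pooled value was 29.1% and the median 8.70%, against 5.65% on the autosomes. Whether unequal copy number sets their height was not tested.

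Chromosome 14 from 18208001 to 18211000 had the highest ratio among the tested patches. Patches are ranked by the ratio of reads plus 1 to flank expectation plus 1, and the values given for single patches are plain ratios of density. It held 504 reads in replicate 1 and 160 in replicate 2, a density 77.2 times its flanks in replicate 1 (exact 95% interval 55.2 to 111) and 41.2 times in replicate 2, and reads with 2 placements at 439 and 149 times their usual density. On chromosome 15 from 74912001 to 74915000, 245 and 200 reads stood 34.6 times (25.9 to 46.8) and 43.9 times above the flanks. On chromosome 1 from 87422001 to 87425000, 175 and 86 reads gave 25.3 times (18.5 to 35.1) and 19.4 times. These patches were picked for their ratio in replicate 1 from regions chosen by replicate 2, so high values in both libraries follow in part from the choice. In replicate 1 their flanks held 2.18, 2.36 and 2.30 reads per kb, against a median of 7.37 over all patches, so low flanks enter these ratios.

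Ratios of 6 to 11 in replicate 1 followed at 5 further repeat-rich patches. Chromosome 11 from 108827001 to 108829000 held 142 and 166 reads, at 11.3 times (9.06 to 14.01) its flanks in replicate 1. Chromosome 2 from 181846001 to 181848000 held 152 and 48 reads at 9.68 times (7.69 to 12.2), and chromosome 3 from 8228001 to 8230000 held 120 and 42 at 8.69 times (6.89 to 10.9). The patch on chromosome 8 from 20401001 to 20404000 held only 37 and 28 reads, but its flanks held 1.44 reads per kb in replicate 1, so its ratio was 8.56 (5.26 to 13.9). Chromosome 17 from 3038001 to 3041000, near the first placed reads of its chromosome, held 77 and 101 reads at 6.04 times (4.51 to 8.05), and reads with a second placement were 208 and 539 times as dense there as usual. The tenth patch in this ranking, chromosome 6 from 129147001 to 129149000, held 49 and 41 reads at 4.39 times (3.13 to 6.06) and was repeat-rich too, at 19.98 and 38.3 times.

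Chromosome 5 from 3000001 to 3003000 held the most reads of any patch, 1353 in replicate 1 and 377 in replicate 2. It lies at the first placed reads of its chromosome and had 5 usable flank bins, so it could not be tested. Reads with 2 placements stood there at 925 and 347 times their usual density, and 76.5% of its reads in replicate 1 were repeats of the same position.

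**Figure D5:**
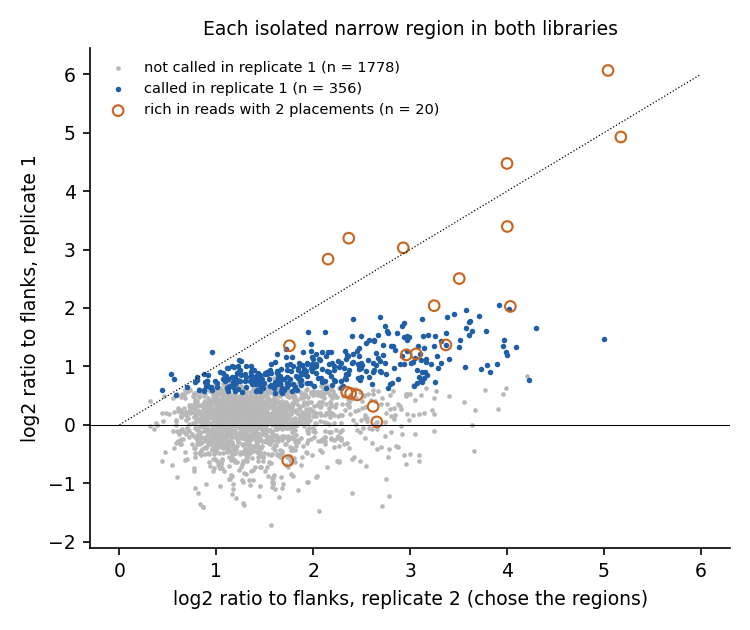
Each tested isolated narrow region by its log2 ratio to flanks in replicate 2 (horizontal axis) and replicate 1 (vertical axis), coloured by the call in replicate 1; open circles are the 20 rich in reads with 2 placements and the dotted line marks equal ratios. The 8 regions at least 5-fold over their flanks in replicate 1 are all open circles, and the other called regions lie mostly below the line.

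Among the 10 called patches that rank highest, 1 was free of such reads in replicate 1. Chromosome 3 from 20087001 to 20089000 held 42 reads in replicate 1 and 86 in replicate 2, with 0 and 1 read position of 2 placements. It stood 4.49 times over its flanks in replicate 1 (3.11 to 6.37, adjusted p = 1.26e-12 in the exact binomial test) and 18.01 times in replicate 2. No kept region lay within 582 kb to the left or 136 kb to the right. By plain density ratio, chromosome 8 from 74810001 to 74812000 would also enter the first 10, with 21 reads in replicate 1 and 38 in replicate 2, a ratio of 4.57 (2.65 to 7.61) and 0 reads of 2 placements. The flanks of that patch on chromosome 8 held only 2.30 reads per kb in replicate 1.

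Below it came a series of similar patches with few or no repeated placements, picked out here after their values were seen. Chromosome 1 from 9928001 to 9930000 held 55 reads in replicate 1 and 112 in replicate 2, at 3.91 times its flanks in replicate 1 (2.87 to 5.26). Chromosome 15 from 43307001 to 43310000 held 78 and 54 reads at 3.61 times (2.75 to 4.67). Chromosome 2 from 74377001 to 74380000 held 89 and 115 reads at 3.44 times (2.67 to 4.39). In replicate 2 the patches on chromosomes 15 and 2 stood 5.77 and 8.16 times over their flanks. Adjusted p in replicate 1 was 2.54e-14, 3.00e-17 and 3.07e-18 in the exact binomial test. The patch on chromosome 15, with 194 and 388 kb to its neighbours, is among the more remote. Of all 370 called patches, 328 (88.6%) had reads with 2 placements at under 2 times their usual density in replicate 1, and 206 (55.7%) had none in either library. Over all patches, called or not, 62.4% had none. The 90th percentile of the density in replicate 1 was 2.35 times the usual among called patches and 1.18 times among the others. Called patches were thus the richer in such reads.

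Leaving out the 21 repeat-rich patches changed the picture little: 356 of 2134 (16.7%) were called, at a median log2 ratio of 0.19. Of the 154 such patches with 60 or more reads in replicate 2, 107 (69.5%) were called at a median of 0.97, and of the 1980 with fewer, 249 (12.6%) at 0.17. The 32 with 100 or more reads gave 30 calls (93.8%). Over all kept regions the share called was 36.0%, and over 2 kb windows away from regions it was 5.11%. Patches with more reads also give the test more power.

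A pair of strong patches of replicate 2 were not called in replicate 1. Chromosome 9 from 95214001 to 95217000, second in reads in replicate 2, held 209 reads there at 12.4 times its flanks. Replicate 1 held 26, or 1.33 times (0.851 to 2.001, adjusted p = 0.212 in the exact binomial test), with 0 reads of 2 placements in both libraries. Chromosome 10 from 30530001 to 30533000 held 102 reads in replicate 2 at 9.32 times, and 37 in replicate 1 at 1.43 times (0.988 to 2.02, adjusted p = 0.0746 in the exact binomial test). By contrast the next in reads, chromosome 3 from 110377001 to 110380000, held 205 reads in replicate 2 and 58 in replicate 1, at 2.84 times its flanks there (2.09 to 3.81, adjusted p = 1.27e-09 in the exact binomial test). Gel range, flow cell and date cannot be told apart as sources of such differences.

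At the other end, 31.3% of patches held fewer reads in replicate 1 than their flanks predicted. Chromosome 13 from 96991001 to 96993000 held 28 reads in replicate 2 and 3 in replicate 1, 0.247 of its flank density (0.0505 to 0.730). Chromosome 18 from 64465001 to 64467000 held 36 and 4 at 0.310 (0.0839 to 0.805), and chromosome 11 from 45664001 to 45667000 held 32 and 8 at 0.349 (0.149 to 0.698). Chromosome 6 from 32337001 to 32339000 (26 and 6 reads) and chromosome 1 from 110204001 to 110206000 (25 and 7) had 0.343 and 0.352. In each of these 5 the interval lies below 1, yet they were picked as the lowest of 2154, and the one-sided test does not address a deficit.

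Replicate 1 was also read with no flanks. Scaled by depth, the threshold of 12 reads became 16 in replicate 1, and 330 patches (15.3%) had a bin at or over it, against 5.01% of all autosomal bins with reads and 41.4% of kept regions. Patches have 2 or 3 bins each, so their share and that of single bins do not count the same unit. Regions called in replicate 1 by the same rule at 16 reads overlapped 139 patches (6.45%) and 27.9% of all kept regions. With the threshold scaled by background, 25 reads, 61 patches (2.83%) had such a bin, against 1.19% of bins and 17.4% of kept regions. For patches of 2 or 3 bins that is no clear excess over single bins, and wider kept regions have more bins that can pass.

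The surroundings of the patches were not empty. Flank density in replicate 2 was over that library's background at 1910 patches (88.6%), and in replicate 1 at 1538 (71.4%). Flanks leave out 1 kb bins with no read in either library and the background keeps them, so the measures differ. By flank density alone, the medians in replicate 2 were 5.03 reads per kb at patches and 2.42 at 2 kb windows. In replicate 1 they were 7.37 and 6.34. Within 20 kb, 1521 patches (70.6%) had at least 1 further called bin that the rule had dropped for standing alone, against 23.8% of 2 kb windows. Those 1521 were called in replicate 1 in 14.1% of cases, and the 634 without such a bin in 24.6%. Isolation at 20 kb is thus isolation from regions of at least 2 bins, within a zone of slightly raised counts.

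Distance to the next kept region had a median of 41 kb and reached 3970 kb. Patches with the nearest region over 20 and up to 50 kb away numbered 1292 and were called in 15.9% of cases. Up to 100 kb the share was 17.1% of 439, up to 200 kb 20.8% of 255, and beyond 200 kb 21.4% of 168. Median log2 ratios in replicate 1 ran from 0.19 to 0.24 over these 4 classes.

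Stretches with no placeable reads also went with the calls. At least 1 bin with no read in either library lay within 20 kb of 782 patches, and 26.5% of those tested were called, against 11.9% of the 1373 patches with none. Among 2 kb windows the shares were 5.97% and 3.70%. The part of unplaceable sequence in the calls was not tested.

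Patches occurred on every autosome, at 0.748 per Mb with reads on chromosome 7 to 1.24 on chromosome 9. Chromosome 14 had the highest share of its kept regions among them, 118 of 1038 (11.4%), and chromosome 7 the lowest, 90 of 1770 (5.08%). The share called in replicate 1 ran from 9 of 90 on chromosome 12 (10.0%) to 20 of 81 on chromosome 17 (24.7%), and the median log2 ratio from 0.10 on chromosome 4 to 0.31 on chromosome 7. It was positive on each of the 19.

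Finally, the identity of the patches depended on where the bins began. With bins moved by 500 bp the rule gave 2071 patches, and 671 of the 2155 (31.1%) overlapped one of them. A called bin was still present at 2025 (94.0%) and a kept region of any width at 1206 (56.0%). With the roles exchanged, replicate 1 at 16 reads per bin gave 2188 isolated narrow regions, of which 1142 of 2186 (52.2%) were called in replicate 2, where 69.0% of all regions chosen in replicate 1 were. Of the 2188, 71 (3.24%) overlapped a patch chosen in replicate 2, which is 3.29% of those. A kept region of any width in replicate 2 was met by 1227 of the 2188 (56.1%), against 10403 of all 12871 regions of replicate 1 (80.8%).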

How the data were processed

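Per the file headers, the authors placed reads on mm8 with Bowtie (-e 70, -k 2, -m 2, -n 2, -l 36, best placements first), as the submitters' processing notes also say (Bowtie, mm8). For the aligner, the version was not given in these sources. The deposited values are signed read positions, 1 line per placement, with reads of 1 and of 2 placements apart and no unit of signal. From the reads with 1 placement, 1 read per position and strand was kept, and positions as deposited were counted in 1 kb bins. Regions and tests are described in the report. Coordinates count from 1 on the assumption that deposited positions count from 0. Patches named are the 10 called in replicate 1 with the highest ratio there and at least 20 reads, the 5 lowest, the 5 densest in reads with 2 placements and the 3 with the most reads in replicate 2; others are marked as picked after seeing their values. The patches, the lists and the tests were chosen with earlier results of these data known. Replicates are numbered in accession order. The code of the test was checked on simulated Poisson counts, which do not hold the extra variation that the windows show. Intervals cover counting error only, because PCR copies cannot be told from independent molecules without molecular identifiers. Software was Python 3.11.15, pandas 2.3.3, SciPy 1.17.1, NumPy 2.4.6 and matplotlib 3.10.9.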

Additional observations from a re-analysis of the deposited data

Results flagged for a closer look

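Reads with 2 placements entered neither the rule nor the test, so the values below lie outside both. At 21 patches they reached at least 10 times their genome-wide density in both libraries. The highest were chromosome 5 from 3000001, with 1181 distinct positions in replicate 1 and 326 in replicate 2, chromosome 14 from 18208001, with 560 and 140, and chromosome 17 from 3038001, with 265 and 506.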

How the results depend on the processing

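Of 2155 patches, 370 were called in replicate 1 at a median log2 ratio of 0.20. The median stayed above 0 under all 17 alternatives that give one. With repeated positions kept it was 0.221 (489 called, 22.7% against 40.4% of all kept regions), against the genome background 0.322 (631 called, 29.3% against 55.8%), with empty flank bins kept 0.234 (456 called, 21.2% against 39.3%), and with patches widened by 1 kb on both sides 0.165 (429 called, 19.9% against 36.7%). At 15 reads per bin it was 0.330 (535 of 1765, 30.3% against 48.96%), and at 20 reads 0.626 (797 of 1460, 54.6% against 66.3%). With no gap joined there were 3278 patches, 581 called (17.7% against 33.9%), median 0.220. Adjusted p below 0.001 left 147 calls (6.82% against 23.9%) and a ratio of at least 2 left 148 (6.87% against 13.8%). Isolation of 50 kb gave 863 patches, with 164 of 862 called (19.0% against 36.0% of all kept regions). Isolation of 10 kb gave 3690 patches, and no isolation gave 1153 calls among 8623 (13.4% against 36.0%). With the roles of the libraries exchanged, 1142 were called (52.2% against 69.0%) at a median of 0.679. Scaled by background, the bin threshold in replicate 1 was reached by 61 patches, against 330. Patches rich in reads with 2 placements numbered 33 at 5 times the usual density and 10 at 20 times. A further 2 settings were added after seeing the data. Without patches that have an empty bin within 20 kb, 163 of 1373 were called (11.9% against 36.0% of all kept regions) at a median of 0.159. Without those of 60 or more reads in replicate 2, 256 of 1992 were called (12.9% against 36.0%) at 0.169. The cause of these changes was not tested. Leaving out a library gives 2155 to 2188 patches and no second library to read them in. Of 49 values in all, 24 stayed within 1.5 times the reported count or within a 95% binomial interval of the median taken over regions, which are not independent, so this tally is no measure of stability. No paired analysis was possible because the labels carry no replicate numbers and there is 1 group. Depth limits the weakest patches: 24 reads in replicate 2 over 2 kb, and about 7 reads per kb of flank in replicate 1.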
